A study of Mus musculus with 12 samples.

Results

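Intraflagellar transport (IFT) and transition zone genes were described as a set of 43 genes chosen by name, of the 56748 genes measured. They fell into 14 genes of the IFT-B complex, 6 of the IFT-A complex, 6 of the motors that carry both complexes, and 17 of the transition zone. RNA was sequenced from 12 mouse libraries at 2 weeks of age, with 3 replicates in each of 4 groups. All groups carried RiboTag, an allele that adds an HA tag to a ribosomal protein once Cre has acted, and the i75-Rod-Cre transgene, which is active in rods. The Het controls carried 1 floxed and 1 intact copy of Shp2 (Shp2 fl/+), and the KO mice carried 2 floxed copies (Shp2 fl/fl). Sample titles named the controls wt although their genotype was listed as heterozygous, so no group with 2 intact copies of Shp2 was measured. Each genotype was sampled as whole-retina RNA and as rod TRAP RNA, the mRNA pulled down with the tagged ribosomes after cycloheximide perfusion. Nothing in the descriptions states that the replicates came from separate mice or how many retinas entered each library, so p-values measure the spread between these libraries, which may be technical.

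The light-sensing outer segment of a rod is a modified primary cilium. It is joined to the cell body by a connecting cilium, which corresponds to the transition zone of other cilia. Every protein of the outer segment is made in the cell body and must pass through this bridge, and the outer segment is renewed throughout life. Trains of IFT-B and IFT-A particles carry tubulin and membrane proteins along the microtubules. Kinesin-2 drives the trains outward and dynein-2 drives them back. The transition zone is a gate built of scaffold proteins, B9-domain proteins, tectonics and coiled-coil proteins, and mutations in many of its genes cause retinal degeneration or wider ciliopathies.

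Promoters of the genes were read from RefSeq (build GRCm38.p6, whereas the processing notes of the deposited values name GRCm39). A promoter of 300 bases, from 250 before to 50 after the start, was present for 38 of the 43 genes; Dync2li1, Ift122, Ift80, Ift81 and Tmem67 had none. The motif searched first was that of the RFX factors, which are known regulators of ciliary genes, in the form GTTNCCNNGGNAAC on either strand. It was present in promoters of 4 of the 38 genes (10.5%), against 143 of the 27025 genes with a promoter (0.529%), or 148 of 32851 promoters (0.451%). The sites are shown because these 4 genes, Mks1, Ttc26, Ahi1 and Tctn1, were the ones with the whole motif, which stands in capitals in each line. For Mks1 (chr11:87853015-87853214, plus strand) and Ttc26 (chr6:38381324-38381523, plus strand) the 200 bases before the start are given, and the motif began at positions -24 and -33. Ttc26 also held the core of the CRX motif, TAATCC, read on the other strand and likewise in capitals, at position -153. For Ahi1 (chr10:20952560-20952589, plus strand) and Tctn1 (chr5:122264411-122264432, minus strand) the motif lay after the start, and the site is given with up to 8 bases on each side.
Mks1 promoter: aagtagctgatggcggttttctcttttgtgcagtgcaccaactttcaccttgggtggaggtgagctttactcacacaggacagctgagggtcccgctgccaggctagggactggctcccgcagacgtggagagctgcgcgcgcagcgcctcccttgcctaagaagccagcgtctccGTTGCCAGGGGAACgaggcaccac
Ttc26 promoter: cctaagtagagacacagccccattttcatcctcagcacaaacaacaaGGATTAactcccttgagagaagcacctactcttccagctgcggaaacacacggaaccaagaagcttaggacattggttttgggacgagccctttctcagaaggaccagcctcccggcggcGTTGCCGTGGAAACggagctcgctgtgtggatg
Ahi1 site: tagtctgaGTTACCTAGGCAACagcggcag
Tctn1 site: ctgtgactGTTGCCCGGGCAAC

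The half-site GTTGCC, which forms part of many of the whole motifs, was present in promoters of 20 of the 38 genes (52.6%), against 14.1% of all genes with a promoter and 12.5% of all promoters. CRX is a homeobox factor of photoreceptors, and its core TAATCC was present for 2 of the 38 genes (5.26%), Rpgrip1 and Ttc26, against 8.14% of all genes with a promoter and 7.06% of all promoters. The 200 bases before the start of Ift74 (chr4:94614291-94614490, plus strand) are shown because Ift74 had the largest rise in rods of Het mice, and none of the 3 motifs was found there. Those of Rpgrip1 (chr14:52110703-52110902, plus strand) are shown because it was the one gene lower in rod TRAP RNA than in retina RNA in both genotypes. This promoter was chosen after its values were seen. The CRX core stands in capitals at position -28 of the Rpgrip1 promoter, again on the other strand.
Ift74 promoter: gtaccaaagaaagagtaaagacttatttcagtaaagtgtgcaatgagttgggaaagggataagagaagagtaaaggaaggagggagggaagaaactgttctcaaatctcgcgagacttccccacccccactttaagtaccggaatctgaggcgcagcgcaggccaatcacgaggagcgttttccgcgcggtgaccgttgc
Rpgrip1 promoter: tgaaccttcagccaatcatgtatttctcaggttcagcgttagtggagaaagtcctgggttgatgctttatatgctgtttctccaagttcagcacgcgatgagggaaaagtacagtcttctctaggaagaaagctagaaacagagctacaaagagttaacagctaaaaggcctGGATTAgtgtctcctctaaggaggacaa
Between Het rods and Het retina the 20 genes with a half-site had a median log2 fold change of 0.50, and the 18 without had one of 0.68. The motif matches are a description of these windows and were not tested against the expression values.

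Most IFT and transition zone mRNAs were more abundant in ribosome-bound rod RNA than in whole-retina RNA. In Het mice, 28 of the 43 genes were higher in rods and 1 was lower, where 21.4% of all 16110 genes tested were called higher and 36.8% lower. Their median log2 fold change was 0.69, against -0.11 for all genes tested. In KO mice, whose libraries are separate from those of the Het mice, 26 were higher and 2 were lower, where 25.7% and 36.5% of 16121 genes were called in those directions, with a median of 0.78 against -0.02. A gene was called at a Benjamini-Hochberg adjusted p below 0.05 in limma and an absolute log2 fold change above 0.5, and values given with ± below are log2 fold changes with their standard error, on the scale of log2(scaled value + 2). A scaled value is the deposited value divided by the TMM factor of its library (a trimmed mean of the ratios between libraries), and the factors of the Het and KO comparisons were set separately. Of the 43 genes, 23 were called higher in both genotypes, Rpgrip1 was lower in both, and 10 were called in neither. Whole-retina RNA includes that of the rods themselves, and in bulk RNA fewer cells of a type and less RNA per cell cannot be told apart. Rod TRAP RNA was ribosome-bound and retina RNA was total. A difference in RNA level therefore cannot be told apart from one in ribosome binding or pull-down.

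The scaling sets the size of these values. With library totals alone in place of TMM factors, the median of all genes moved by -0.41 in the Het and -0.53 in the KO comparison. The calls were then 14 higher and 4 lower in Het mice, and 13 higher and 5 lower in KO mice. Of all 16110 genes tested in Het mice, 1157 were then called higher and 7417 lower. Of all 16121 in KO mice, these were 1125 and 7863. Under this scaling Dync2h1, Iqcb1 and Tctn1 joined Rpgrip1 on the lower side in Het mice, and Ift20, Dync2h1 and Rpgr joined Rpgrip1 and Iqcb1 in KO mice. Changes are therefore given relative to the TMM centre. Of the 28 genes called higher in Het mice, 14 kept the call in all 15 alternatives run, and of the 26 in KO mice 13 did. When single libraries were left out, 18 of the 28 kept the call each time, and Ift27, Ift52, Traf3ip1, Cluap1, Ttc26, Kifap3, Rpgrip1l, Spata7, B9d1 and Cc2d2a lost it at least once, 9 of them without Het retina replicate 1. In KO mice 18 of the 26 kept it each time, and Ift27, Ift46, Ift81, Cep290, Nphp4, Spata7, Mks1 and Cc2d2a lost it at least once, 6 of them without KO retina replicate 1. Leaving out a retina library also changed the genes that passed the filter and the TMM centre. Without Het retina replicate 1, 13394 genes were tested and the median of all genes moved by -0.095. Without KO retina replicate 1 these were 13458 and -0.17, so such losses may include a change of scaling.

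**Figure D1:**
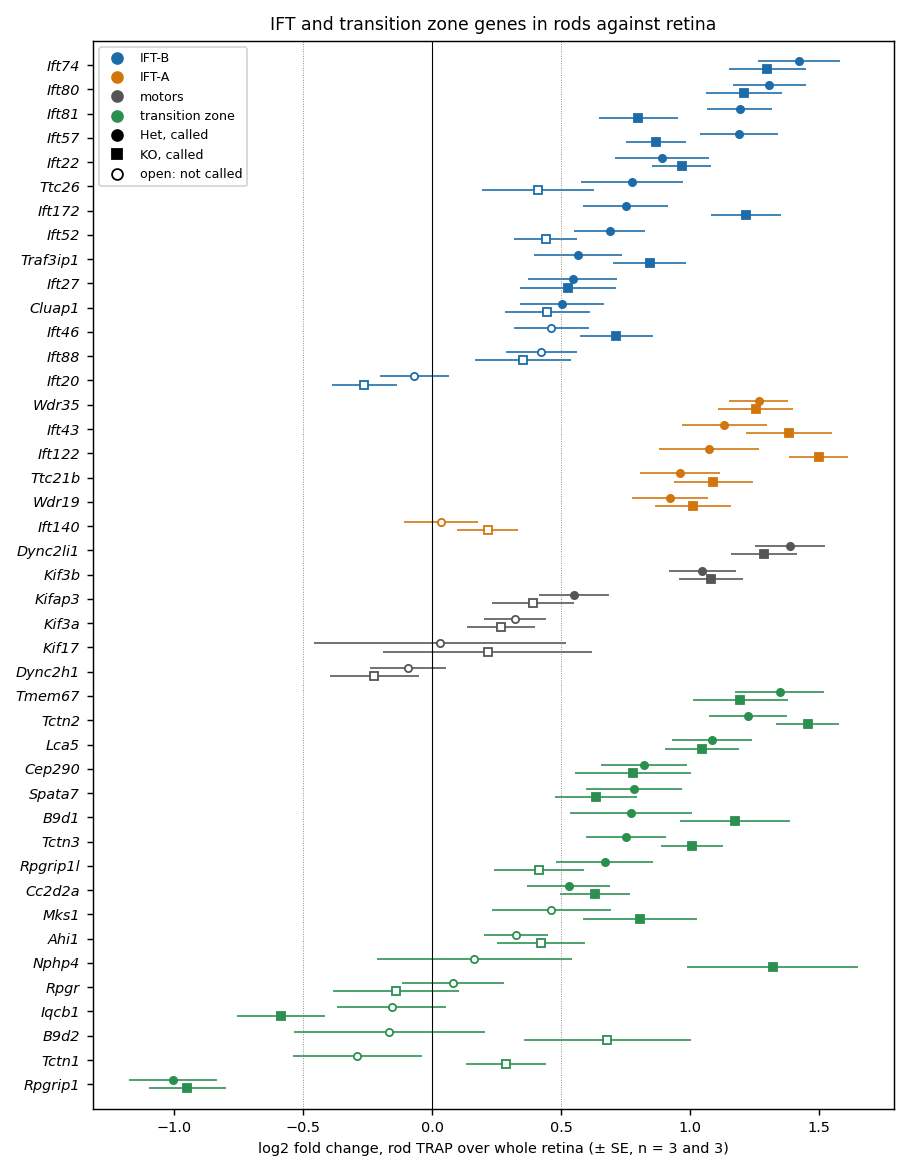
Log2 fold change of rod TRAP over whole retina (x axis, bars ± SE) for the 43 genes, grouped by complex and ordered by the Het value. Circles are Het, squares are KO, filled symbols passed the call, and dotted lines mark a log2 fold change of 0.5 in each direction. Most points lie to the right of 0 in both genotypes, from Ift74 at 1.42 down to Rpgrip1 at -1.0 in Het mice.

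IFT-B, the complex that moves cargo outward, had 11 of its 14 genes higher in Het rods and 9 in KO rods, and none was lower. Ift74, which with Ift81 forms a tubulin-binding part of the complex, had scaled values of 1279, 1147 and 1087 in the 3 Het rod libraries. Those in Het retina were 443, 358 and 518. Its values in KO rods were 1073, 911 and 1095, and in KO retina 386, 492 and 374. Every rod library was thus above every retina library of its genotype, and Ift74 rose by 1.42 ± 0.16 in Het (adjusted p = 7.23e-05, limma) and 1.3 ± 0.15 in KO mice (adjusted p = 7.12e-05). Ift80, a peripheral subunit mutated in skeletal ciliopathies, had 3087, 2595 and 2475 in Het rods and 1221, 946 and 1129 in Het retina. In KO mice it had 2624, 2232 and 2607 in rods and 1042, 1282 and 922 in retina. Ift80 rose by 1.31 ± 0.14 in Het and 1.21 ± 0.15 in KO mice (adjusted p = 5.67e-05 and 0.0001), with no overlap between rods and retina.

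Ift81 (1.19 ± 0.13) and Ift57 (1.19 ± 0.15) followed in Het mice, with 0.80 ± 0.15 and 0.87 ± 0.12 in KO mice. The call of Ift81 in KO mice was lost without KO retina replicate 3 (0.45). Ift22 and Ift27, small GTPases of the complex, rose by 0.89 ± 0.18 and 0.55 ± 0.17 in Het mice. Ift172, a large peripheral subunit, rose by 0.75 ± 0.17 in Het and 1.22 ± 0.14 in KO mice. Ift52, Ttc26 and Cluap1 were called in Het mice, and in KO mice had values of 0.44 ± 0.12, 0.41 ± 0.22 and 0.45 ± 0.17 that were not called. Ift46 was called in KO mice (0.71 ± 0.14) and not in Het mice (0.46 ± 0.15). Ift88, the subunit whose mutation in mouse disrupts outer segment formation, had 0.42 ± 0.14 and 0.35 ± 0.19 and was called in neither. Ift20, which also acts at the Golgi in delivering membrane proteins to the cilium, was the one IFT-B gene below 0, at -0.07 ± 0.13 in Het and -0.26 ± 0.13 in KO mice, and neither value was called. Cluap1 shares 22.4% of its exon bases with Gm20695 on the same strand, so its counts could be split between the 2 genes.

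IFT-A, which is needed for return transport and for the entry of membrane proteins, had 5 of its 6 genes higher in rods of both genotypes. Its median was 1.02 in Het and 1.17 in KO mice. Wdr35, which had the largest value of the complex in Het mice, had scaled values of 1896, 1747 and 1729 in Het rods and 795, 689 and 748 in Het retina. In KO mice the values were 1747, 1379 and 1917 in rods and 671, 756 and 667 in retina. Wdr35 rose by 1.27 ± 0.11 in Het (adjusted p = 2.04e-05) and 1.25 ± 0.14 in KO mice (adjusted p = 7.74e-05), and rod and retina libraries did not overlap. Ift43 (1.13 ± 0.16), Ift122 (1.07 ± 0.19), Ttc21b (0.96 ± 0.16) and Wdr19 (0.92 ± 0.15) were called in Het mice in all 15 alternatives. In KO mice they had 1.38 ± 0.17, 1.5 ± 0.11, 1.09 ± 0.15 and 1.01 ± 0.15. Ift140, a core subunit mutated in retinal dystrophy, had 0.03 ± 0.14 and 0.22 ± 0.12 and was called in neither. The 95% interval of Ift140 in Het mice (-0.29 to 0.36) lay below that of Wdr35 (1.01 to 1.53).

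Among the motors, subunits of 1 motor differed. Dync2li1, the light intermediate chain of dynein-2, had scaled values of 853, 703 and 863 in Het rods and 309, 314 and 296 in Het retina. In KO mice it had 639, 735 and 763 in rods and 291, 277 and 303 in retina. Dync2li1 rose by 1.39 ± 0.14 (adjusted p = 3.3e-05) in Het and 1.29 ± 0.13 (adjusted p = 3.5e-05) in KO mice, with rods above retina in every library. Dync2h1, the heavy chain and force-generating subunit of the same motor, had -0.09 ± 0.15 and -0.22 ± 0.17 and was called in neither. The 95% interval of Dync2h1 in Het mice (-0.43 to 0.25) did not reach that of Dync2li1 (1.08 to 1.70).

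Kinesin-2 subunits also differed in size. Kif3b, one of its 2 motor subunits, rose by 1.05 ± 0.13 in Het and 1.08 ± 0.13 in KO mice. Kif3a, the other motor subunit, had 0.32 ± 0.12 and 0.27 ± 0.13, which were not called. Kifap3, the subunit that links the motor to cargo, was called in Het mice (0.55 ± 0.13) and not in KO mice (0.39 ± 0.16). Kif17, a homodimeric kinesin of the same family, had the lowest level of the 43 genes, with scaled values from 21.9 to 49.3 in Het rods and from 21.4 to 73.0 in Het retina, and rods and retina overlapped.

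The transition zone was the most mixed group, with 9 of 17 genes higher and 1 lower in Het rods, and 10 higher and 2 lower in KO rods. Tmem67 (meckelin), a membrane protein of the Meckel syndrome module, had scaled values of 881, 666 and 826 in Het rods against 356, 260 and 314 in Het retina. In KO mice the values were 558, 568 and 707 in rods against 251, 333 and 221 in retina. Tmem67 rose by 1.35 ± 0.17 (adjusted p = 0.00015) and 1.19 ± 0.18 (adjusted p = 0.000433), and rods and retina did not overlap. Tctn2, a tectonic, had 1110, 1197 and 1237 in Het rods and 537, 575 and 413 in Het retina. Its values in KO mice were 1377, 1548 and 1571 in rods and 523, 509 and 605 in retina. Tctn2 rose by 1.23 ± 0.15 in Het (adjusted p = 0.000124) and 1.46 ± 0.12 in KO mice (adjusted p = 1.22e-05), again without overlap.

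Lca5 (lebercilin), whose mutation causes Leber congenital amaurosis, a blindness of early childhood, rose by 1.09 ± 0.16 in Het and 1.05 ± 0.14 in KO mice, Cep290, a coiled-coil protein of the gate, by 0.82 ± 0.17 and 0.78 ± 0.22, and Spata7 by 0.78 ± 0.18 and 0.63 ± 0.16. Iqcb1, which binds Cep290, had -0.16 ± 0.21 in Het mice and fell by 0.59 in KO mice (SE 0.17, adjusted p = 0.0141), where its scaled values were 224, 192 and 229 in rods and 325, 378 and 273 in retina. Its call was lost without KO rod replicate 2 (adjusted p = 0.0577) and with the GC trend removed (-0.50). Rpgr, the gene most often mutated in X-linked retinitis pigmentosa, had 0.08 ± 0.20 and -0.14 ± 0.24. The other tectonics differed, with Tctn3 called in both genotypes (0.75 ± 0.16 and 1.01 ± 0.12) and Tctn1 in neither (-0.29 ± 0.25 and 0.29 ± 0.16). Of the B9-domain genes, B9d1 was called in both (0.77 ± 0.24 and 1.17 ± 0.21), Mks1 in KO mice alone (0.46 ± 0.23 and 0.81 ± 0.22) and B9d2 in neither (-0.17 ± 0.37 and 0.68 ± 0.32). Nphp4, a scaffold of the nephronophthisis module that is mutated in kidney and retinal disease, had 0.16 ± 0.38 in Het mice and rose by 1.32 ± 0.33 in KO mice, a call lost without KO retina replicate 1 (1.0, adjusted p = 0.0706) or 2 (0.87, adjusted p = 0.0508). Cc2d2a, a membrane-associated scaffold, was called in both genotypes (0.53 ± 0.16 and 0.63 ± 0.13), and Ahi1 (jouberin) in neither (0.33 ± 0.12 and 0.42 ± 0.17).

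Rpgrip1, the scaffold that holds Rpgr at the connecting cilium, was the one gene lower in rod TRAP RNA than in whole-retina RNA in both genotypes. Its scaled values were 4376, 4039 and 4023 in Het rods, against 10990, 7361 and 7098 in Het retina. In KO mice they were 4581, 3793 and 4283 in rods and 8478, 9464 and 6657 in retina. All rod libraries were below all retina libraries of their genotype, and Het retina replicate 1 was the highest. Rpgrip1 fell by 1.0 in Het mice (SE 0.17, adjusted p = 0.000852) and fell by 0.95 in KO mice (SE 0.15, adjusted p = 0.000531). Over the 15 alternatives the Het value ranged from -1.42 to -0.83 and the call was kept in each. On the annotation used here, 8.7% of its exon bases overlap Supt16 on the opposite strand, and the library kit does not mark strand. Its paralog Rpgrip1l, a scaffold of the transition zone in many cell types, moved the other way, with 757, 579 and 590 in Het rods and 460, 315 and 442 in Het retina. In KO mice Rpgrip1l had 455, 471 and 535 in rods and 367, 450 and 293 in retina. Rpgrip1l rose by 0.67 ± 0.19 in Het mice (adjusted p = 0.0131) and had 0.41 ± 0.17 in KO mice (adjusted p = 0.0629). The Het call of Rpgrip1l was lost when Het rod replicate 1 (0.55), Het retina replicate 1 (0.68) or Het retina replicate 2 (0.35) was left out.

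**Figure D2:**
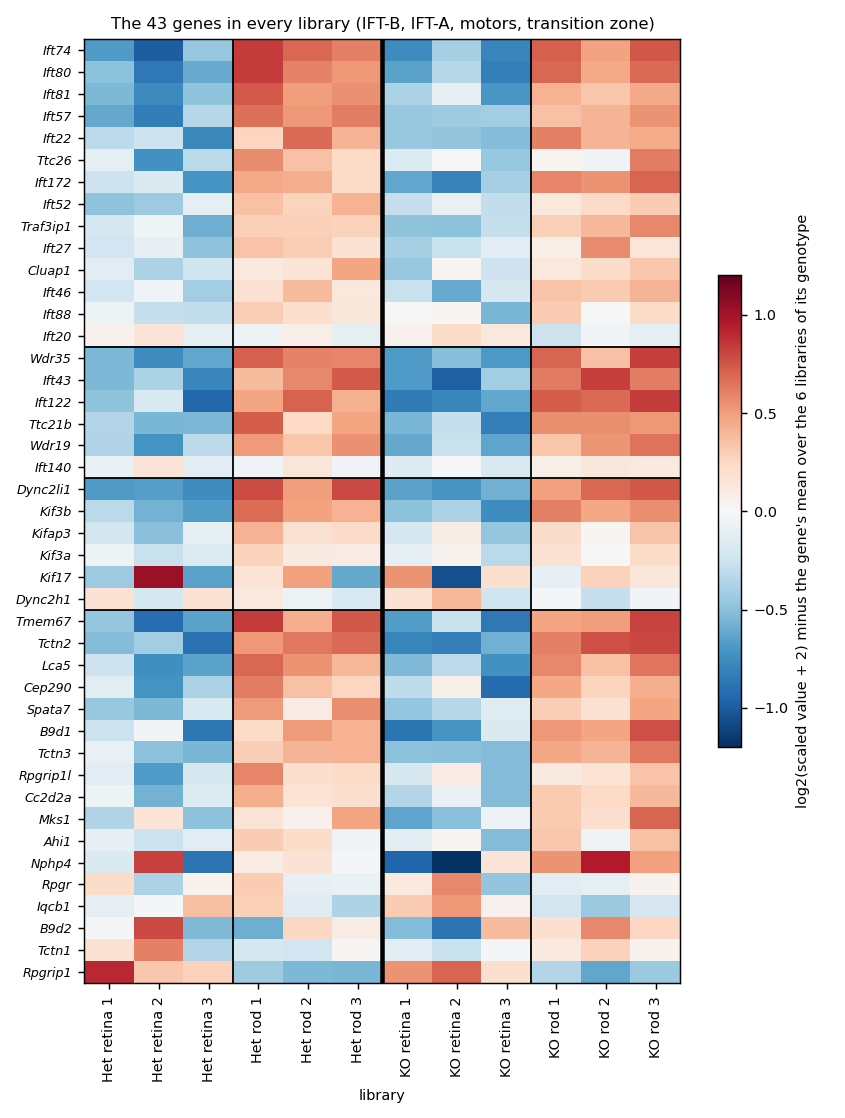
Heat map of the 43 genes (rows, in the order IFT-B, IFT-A, motors, transition zone) in the 12 libraries (columns). Color gives log2(scaled value + 2) minus the mean of the gene over the 6 libraries of its genotype, with red above and blue below. Rod columns are mostly red and retina columns mostly blue, with Rpgrip1 in the last row the other way round. Kif17, Nphp4 and B9d2 differ widely between retina libraries of the same genotype.

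Per kilobase of transcript, the level of the 43 genes in Het rods ran from 10.6 ± 4.0 for Kif17 to 827 ± 74.9 for Kif3b (scaled value per kb, SD, n = 3), with a median of 250. Kif3b was followed by Ift81 (783 ± 69.7), Ift43 (772 ± 94.6) and Rpgrip1 (771 ± 37.0), and these 4 levels differed by less than the SD of Kif3b. Rpgrip1 was thus among the most abundant of these mRNAs in rod TRAP RNA although it was called depleted there. In Het retina Rpgrip1 stood at 1580 ± 404 per kb, above the 489 ± 44.1 of Ift20, the highest IFT-B gene, and the 457 ± 62.1 of Kifap3, the highest motor. The partner of Kif3b, Kif3a, had 338 ± 24.2 per kb in Het rods, and in Het retina Kif3b had 401 ± 50.5 and Kif3a 270 ± 19.5. The light intermediate chain Dync2li1 had 596 ± 66.1 per kb in Het rods and the heavy chain Dync2h1 had 78.2 ± 8.26. The transcript lengths used were 1354 bases for Dync2li1 and 14264 for Dync2h1, and an effect of length on these levels was not tested. Lca5 (582 ± 60) and Ahi1 (573 ± 66.6) came next to Rpgrip1 in the transition zone and differed from each other by less than their SD, while Nphp4 (33.0 ± 2.38) and Tctn1 (29.6 ± 2.92) closed the order. Levels per kb used the length of the longest annotated coding transcript, which need not be the isoform present in rods.

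**Figure D3:**
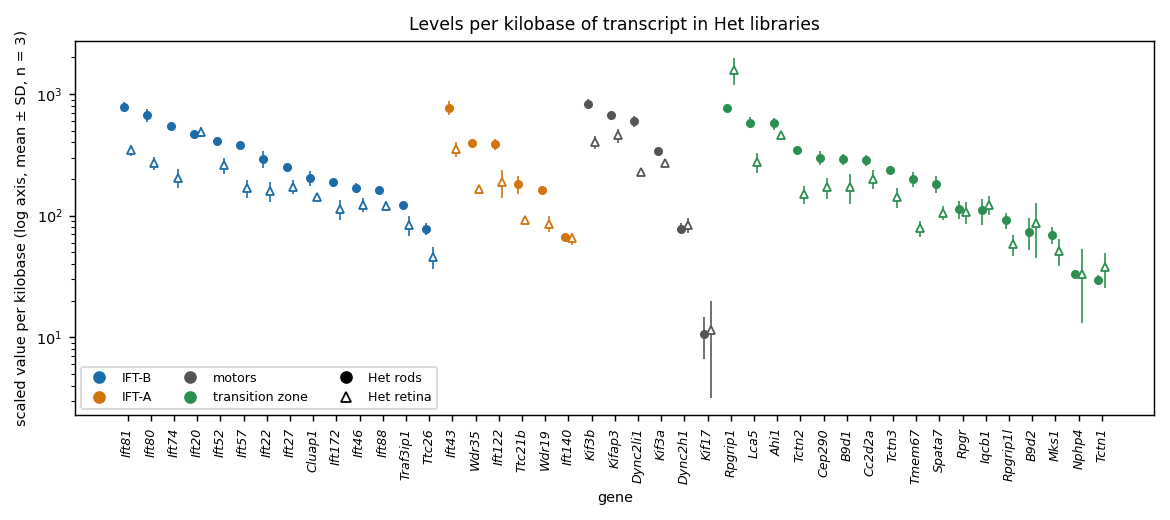
Scaled value per kilobase (log axis, mean ± SD, n = 3) of each gene in Het rods (filled circles) and Het retina (open triangles), ordered by the rod level within each complex. Rod levels exceed retina levels for most genes, Rpgrip1 has the highest retina level (1580), and Kif17 has the lowest levels in both.

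All 10 rod markers were called higher in rods than in retina in both genotypes, with a median of 1.82 in Het and 2.02 in KO mice, above the median of the IFT and transition zone genes. Cone markers were lower (8 of 8, median -1.11 in Het mice), as were those of Müller glia (8 of 8, -4.59), amacrine cells (8 of 8, -4.87), ganglion cells (8 of 8, -5.13), horizontal cells (4 of 4, -3.77), microglia (7 of 7, -4.09), vessels (6 of 6, -4.34) and retinal pigment epithelium (4 of 4, -3.15). Of 8 bipolar markers 6 were lower and 1 was higher (-4.98), and of 3 tested genes of motile cilia, a type that rods lack, 1 was lower (-0.57). In KO mice all tested markers of cones, Müller glia, amacrine, ganglion and horizontal cells, microglia and vessels were called lower. Bipolar markers again gave 6 lower and 1 higher of 8, and motile cilia genes 2 lower of 4. Of 5 pigment epithelium markers only 1 was called lower in KO mice (median -2.65). Their summed deposited values ranged from 215 to 4854 between KO retina libraries. Ptpn11, the gene that encodes Shp2, had deposited values of 2511, 2439 and 2431 in Het rods, against 1735, 2139 and 1971 in KO rods, a difference of -0.25 ± 0.09 that was not called (adjusted p = 0.0625). This value sums the whole gene, and how much of it lies in the floxed part is not given in the sources used here. Totals of the deposited values were 16263948 to 16265259 in rod and 14525527 to 14527992 in retina libraries, and the reads behind them were estimated at 9980000 to 25280000 per library.

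In rods, few of these genes were called between KO and Het mice. The comparison asks which rod mRNAs differ once the second copy of Shp2 is floxed as well. Genes depleted in Het rods were left out before it, and this removed Rpgrip1 and left 42. Of these, Nphp4, B9d2 and Tctn1 were called higher and Ift81 lower, where 12.7% of all 10076 genes tested were called higher and 2.03% lower. Their median was -0.08, with 17 above 0 and 25 below. With library totals alone, 3 were higher and 2 lower, Iqcb1 being the second (-0.56, adjusted p = 0.0212, limma). Of all 10076 genes tested, 1010 were then called higher and 543 lower.

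Nphp4 had scaled values of 148, 156 and 137 in Het rods, against 284, 398 and 268 in KO rods. KO libraries all lay above Het libraries, and Nphp4 rose by 1.08 ± 0.16 (adjusted p = 0.00318), a call lost with the GC trend of each library removed (0.32, adjusted p = 0.114). B9d2 had 45.1, 80.6 and 73.6 in Het rods, against 102, 141 and 103 in KO rods. B9d2 also did not overlap, and it rose by 0.80 ± 0.23 (adjusted p = 0.026), a call lost without Het rod replicate 1 (0.53, adjusted p = 0.0796), KO rod replicate 1 (0.88, adjusted p = 0.0523) or KO rod replicate 2 (0.65, adjusted p = 0.0807) and with the GC trend removed (0.31, adjusted p = 0.288). Tctn1 had 143, 139 and 169 in Het rods, against 221, 262 and 206 in KO rods, without overlap, and rose by 0.60 ± 0.15 (adjusted p = 0.0125), a call likewise lost with the GC trend removed (0.16, adjusted p = 0.466). On the annotation used here, Tctn1 shares 19.0% of its exon bases with Hvcn1 on the opposite strand. Ift81 had 2267, 1896 and 1992 in Het rods, against 1401, 1398 and 1408 in KO rods. All KO libraries were below the Het libraries, and Ift81 fell by 0.54 (SE 0.08, adjusted p = 0.00341), a call lost without Het rod replicate 1 (-0.49) and with the GC trend removed (-0.35), both short of the fold limit.

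A further 8 genes had an adjusted p below 0.05 with a change of less than 0.5. With no fold limit, 12 of the 42 genes were below 0.05 in limma, against 2926 of all 10076 genes tested, a similar share. Those above 0 were Tctn2 (0.38 ± 0.09), Ift140 (0.37 ± 0.10), Traf3ip1 (0.36 ± 0.10), Ift172 (0.35 ± 0.09), Ift122 (0.30 ± 0.09) and B9d1 (0.44 ± 0.13), and those below 0 were Rpgrip1l (-0.35 ± 0.12) and Ift57 (-0.30 ± 0.09). Traf3ip1, an IFT-B subunit that binds microtubules, and Ift172 thus lay on the other side of 0 from Ift81 and Ift57 of the same complex. Among the 6 motors none was called, with values from -0.24 (Dync2h1) to 0.40 (Kif17, SE 0.29). In the fit that kept rod-depleted genes, in which 11.2% of 13055 genes were called higher and 1.91% lower, Rpgrip1 had 0.04 ± 0.08 with a 95% interval of -0.13 to 0.22.

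GC content moved with these values. GC content of the transcript ran over the 42 genes from 38.7% in Cep290 to 60.1% in Kif17. The 12 genes below 45% GC all had a lower value in KO than in Het rods, with a median of -0.22. Of the 14 genes from 45% to 50% GC, 12 were below 0. Of the 16 genes with 50% GC or more, 15 were above 0, with a median of 0.36, and the 3 genes called higher were all among them (Nphp4 59.3%, B9d2 56.0%, Tctn1 55.6%). Ift81, the gene called lower, had 43.2% GC. The Spearman correlation between GC content and the log2 fold change was 0.80 across the 42 genes and 0.73 across 9990 genes tested, a description across genes that share libraries. Over all genes tested the median ran from -0.28 in the lowest decile of GC content to 0.72 in the highest. Within single libraries, the difference of the highest from the lowest GC decile (log2) was negative for the 3 Het rod libraries, at -0.82, -0.24 and -0.43, and positive for the 3 KO rod libraries, at 0.42, 0.79 and 0.29, so that this trend separated the 2 genotypes.

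**Figure D4:**
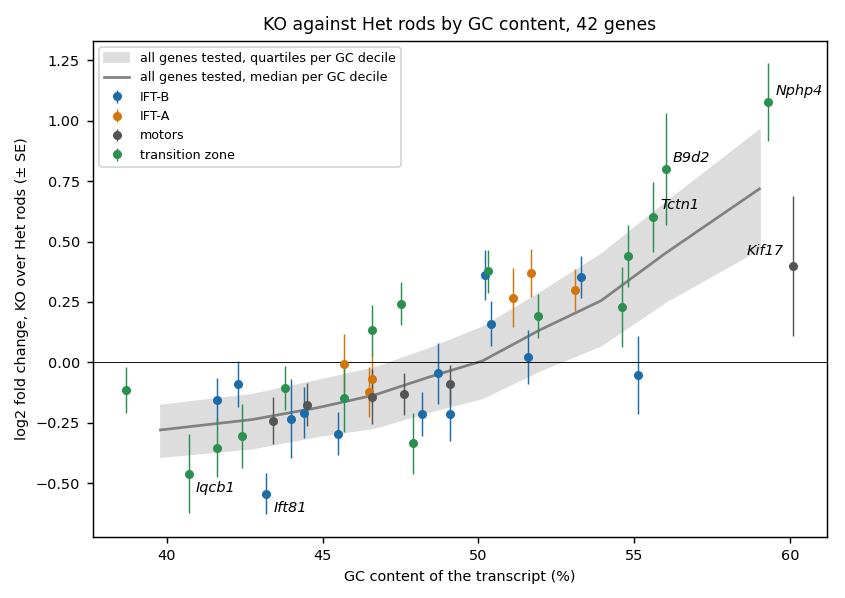
Log2 fold change of KO over Het rods (y axis, bars ± SE) against the GC content of the transcript (x axis, percent) for 42 genes, colored by complex. The grey line and band give the median and quartiles of all genes tested in each GC decile. Most genes follow the grey line from negative values below 45% GC up to Nphp4 at 1.08, and Ift81 and Ift27 are among the genes below the band.

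After each library had been corrected for its GC trend, none of the 42 genes was called, and 1.4% of all genes were called higher and 1.87% lower. The standard errors were then 0.12 for Nphp4, 0.18 for B9d2 and 0.13 for Tctn1. Ift81 kept an adjusted p of 0.00572 (limma) at -0.35 ± 0.06. Tctn2 (0.33 ± 0.08, adjusted p = 0.0181), Cc2d2a (0.32 ± 0.07, adjusted p = 0.016), Traf3ip1 (0.31 ± 0.09, adjusted p = 0.0457) and Ift27 (-0.46 ± 0.14, adjusted p = 0.0471) also had an adjusted p below 0.05 in this fit. With no fold limit, these were 5 of the 42 genes, against 1046 of all 10076 genes tested, a similar share. Ift27, a GTPase that serves the exit of the BBSome from cilia, has 55.1% GC and had -0.05 ± 0.16 before the correction. The Spearman correlation across the 42 genes was 0.19 after it. The part of GC content in the genotype values was not tested further. In the comparison of Het rods with Het retina the same correction left 27 genes higher and 1 lower. Nphp4 (0.85 ± 0.19) and Mks1 (0.64 ± 0.16) were added, and Cluap1, Kifap3 and Cc2d2a were lost. Of all 16110 genes tested in that fit, 4202 were called higher and 5873 lower.

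**Figure D5:**
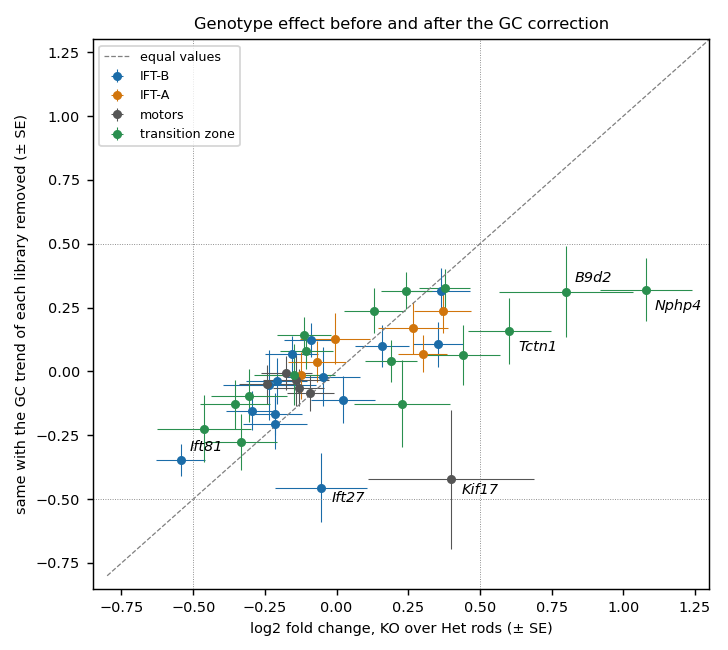
Log2 fold change of KO over Het rods before (x axis) and after (y axis) removal of the GC trend of each library, with SE bars, for 42 genes colored by complex. The dashed line marks equal values and the dotted lines a log2 fold change of 0.5 in each direction. After the correction no gene lies beyond 0.5, and Nphp4 moves from 1.08 to 0.32.

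In whole retina none of the 43 genes was called between KO and Het mice. Of all 16863 genes tested 0% were called in limma, 140 had an unadjusted p below 0.05, and 0 of these were among the 43. Values ran from -0.18 (Wdr19) to 0.24 (Kif17), with a median of -0.01. The lack of calls does not show that levels were equal in the 2 genotypes, and the precision differed between genes. The standard error was 0.14 for Wdr35 and 0.49 for Nphp4, and the 95% interval of Nphp4 in retina (-1.19 to 1.10) held its rod value of 1.08. Scaled values of Nphp4 were 138, 277 and 83.7 in Het retina and 111, 94.2 and 242 in KO retina, and those of B9d2 were 76.3, 135 and 53.0 and then 68.1, 52.3 and 129. Both genes were highest in Het retina replicate 2 and KO retina replicate 3. These 2 libraries also had the highest GC trend of their group, at 0.86 and 0.90, against -0.84 to 0.01 in the other 4 retina libraries.

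The difference of the KO effect between rods and retina was tested over all 12 libraries. It was called for none of the 43 genes and for 0% of 17192 genes in limma. An unadjusted p below 0.05 was found for 3 of the 43, Ift52, Ift57 and Ift81, and for 604 of all genes. The largest values were 1.01 ± 0.55 for Nphp4 and 0.70 ± 0.52 for B9d2 above 0, and -0.58 ± 0.28 for Iqcb1 and -0.54 ± 0.21 for Ift81 below 0. The KO effects in rods were therefore not shown to differ from those in retina.

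A further 22 genes of the same machinery were counted beside the 43. In Het mice 15 were higher and 4 lower in rods, with a median of 0.80, where 21.4% of all genes were called higher and 36.8% lower. The transition zone membrane proteins Tmem237 (1.5 ± 0.13), Tmem138 (1.44 ± 0.13) and Tmem17 (1.28 ± 0.17) and the ciliary GTPase Arl13b (scaled values of 2618, 2435 and 2478 in Het rods against 1118, 817 and 1009 in Het retina) rose most. Tulp3, the adaptor with which IFT-A brings membrane receptors into cilia, had scaled values of 4.31, 15.3 and 12.1 in Het rods and 187, 272 and 244 in Het retina. In KO mice Tulp3 had 21.9, 10.1 and 9.09 in rods and 247, 181 and 320 in retina. Tulp3 fell by 4.34 in Het mice (SE 0.39, adjusted p = 1.98e-05) and fell by 4.05 in KO mice (SE 0.35). Of the 6 IFT-A genes, whose products Tulp3 binds, 5 rose in the same libraries.

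Invs (inversin), which marks a compartment next to the transition zone, was also lower. Invs fell by 1.02 (SE 0.22), and Kif3c, a kinesin-2 subunit that can replace Kif3b, by 0.95 (SE 0.22); both are named after their values were seen. In KO mice Invs fell by 1.54 (SE 0.19), and Kif3c had -0.45 ± 0.14 and was not called. In KO mice 16 of the 22 were higher and 3 lower, where 25.7% and 36.5% of all genes were called. Between KO and Het rods 18 of the 22 were tested, and 1 was higher, Dync2i2 of dynein-2 (0.78 ± 0.13), and 1 lower, Hspb11 of IFT-B (-0.53 ± 0.16), where 12.7% of all genes were called higher and 2.03% lower. With the GC trend removed they had 0.08 ± 0.08 and -0.32 ± 0.15, and neither was called. In the fit that kept rod-depleted genes, Kif3c was called higher in KO rods (0.52 ± 0.11, adjusted p = 0.00839, limma), where 11.2% of 13055 genes were called higher. Kif3c has 51.6% GC and, being rod-depleted, was left out of the fit with the GC trend removed.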

How the data were processed

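Total RNA of whole retina and TRAP RNA of rods were sequenced with SMART-Seq V4 libraries, a kit that does not mark strand. The submitters' processing notes name CASAVA 1.8.2, HISAT2, DESeq2, edgeR and build GRCm39, without their roles. The authors deposited 1 table of signal values per gene and library. Their unit is not given in the sources used here. Within each library the values behaved as read counts multiplied by 1 factor and rounded, from which depth was estimated, so no count model was used. The factor of Het retina replicate 3 was 0.997 and fitted no better than a factor of exactly 1, so its estimated depth is close to its deposited total.

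Genes reaching a value of about 10 in at least 3 libraries, with a sum of at least 15, were scaled by TMM within each comparison and tested with limma 3.58.1 in R 4.3.3 (trend and robust options) on log2(scaled value + 2), with Benjamini-Hochberg adjustment over all genes tested. The comparison of KO with Het rods left out genes that were called depleted in Het rods against retina. Values in every library are given for the 6 largest rises and falls called in Het mice, every gene called between genotypes, and the pair Rpgrip1 and Rpgrip1l. The members and the gene lists were chosen with earlier results of these data known. GC content, length and overlaps came from GENCODE transcripts of GRCm38, using the longest protein-coding transcript of each gene. The GC trend of each library was removed with a lowess curve of span 0.3. Scripts were tested on simulated data.

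Replicate numbers were shared between groups. Deviations of same-numbered Het rod and Het retina libraries correlated (0.47, 0.41 and 0.25), so these numbers were treated as pairs in an alternative fit. Other alternatives were the pseudocount, the scaling, the filter, the GC correction and leaving out each library in turn. Values of some single genes of the pathway and marker lists are not reported here.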

Additional observations from a re-analysis of the deposited data

How the results depend on the processing

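With library size only, the genes called higher in rods numbered 14 in Het and 13 in KO mice, those called lower 4 and 5, and those lower in KO than in Het rods 2, and Ift27 in KO rods against KO retina turned to -0.005 (adjusted p = 0.984, limma). This scaling shifts all rod genes against retina. Over all genes, 1157 were then called higher and 7417 lower in Het mice, against 3453 and 5923 in the main fit. In KO mice these were 1125 and 7863, against 4144 and 5889. Between KO and Het rods 543 were lower, against 205. With the GC trend removed, 1 gene was lower in KO rods than in KO retina, and 0 were higher and 0 lower in KO than in Het rods, and the replicate block with the GC trend removed also gave 1, 0 and 0. Over all genes, the GC correction gave 5926 lower in KO rods than in KO retina, and 141 higher and 188 lower between KO and Het rods. With the replicate block as well, these were 5996, 162 and 208. The cause of these changes was not tested. TMM scaling over all 12 libraries, chosen after seeing the data, gave 2 lower in KO than in Het rods. It raised the median of all genes by 0.17 in the Het comparison. Over all genes, it called 557 lower in KO than in Het rods, against 205 in the main fit. Leaving out single libraries gave 1 to 2 lower in Het mice (2 without Het retina replicate 3, with Tctn1 added). In KO mice it gave 1 to 4 lower (4 without KO retina replicate 3, 1 without KO rod replicate 2). Between KO and Het rods it gave 0 to 2 lower (0 without Het rod replicate 1, 2 without Het rod replicate 3). Over all genes, 3592 of 13396 were lower without Het retina replicate 3. Without KO retina replicate 3, 3914 of 13471 were lower, and without KO rod replicate 2, 5585 of 16022. Between KO and Het rods, 134 of 9978 were lower without Het rod replicate 1, and 191 of 9984 without Het rod replicate 3. The replicate block gave 28 higher and 1 lower in Het mice, 25 and 2 in KO mice, and 3 and 1 between KO and Het rods. Over all genes it gave 3680 and 6149, 4009 and 5869, and 1325 and 218. The 1 call it changed among the 43 genes was that of Ift27 in KO mice (adjusted p = 0.0588, limma). Same-numbered libraries correlated at 0.33, -0.01 and 0.18 in KO mice, 0.25, 0.00 and -0.03 in rods and 0.40, -0.59 and -0.14 in retina, so pairing was not established there, and no label gives it. Precision was limited for low genes such as Kif17, Nphp4 and B9d2.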
